A study of Mus musculus with 20 samples.

Results

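Adipocytes lie between and around the fibers of skeletal muscle, and 10 genes that mark them were followed in the diaphragm of mice injected with asbestos or carbon nanotubes. The 10 genes were Adipoq, Lep, Retn, Cfd, Plin1, Cidec, Fabp4, Pparg, Ucp1 and Cidea, and all noncontrol probes that the array assigns to these symbols were taken. That gave 12 probes, of 55681 noncontrol probes on the array, with 2 each for Cidec and Retn and 1 for every other gene. The array carries 34797 names in all. Each gene is described by its brightest probe, and the second probes of Cidec and Retn are given where they are discussed. All 12 probes were among the 36920 tested, a group that needed a signal well above background on 4 or more arrays. On all 20 arrays that held for every probe except those of Lep and Ucp1, which missed it on 1 array each.

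Female C57Bl/6 mice, 8 weeks old, received 100 µL into the pleural cavity, the space around the lungs that the diaphragm closes from below. The vehicle control (VC) received 0.5% BSA in saline. The other groups received 25 µg of short-fiber amosite asbestos (SFA), 25 µg of long-fiber amosite (LFA), 5 µg of short carbon nanotubes (NTS) or 5 µg of long carbon nanotubes (NTL). Diaphragms were taken 12 weeks later, and RNA of the frozen part was read on single-color arrays, 1 per mouse, with 4 mice in each group. All groups shared strain, sex and age. The dose of asbestos differed from that of nanotubes, so a difference between LFA and NTL carries both the material and the dose. The diaphragm was measured whole, so fewer adipocytes and less RNA per adipocyte cannot be told apart.

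White adipocytes store triglyceride in 1 large droplet coated by perilipin 1 and secrete hormones such as adiponectin, leptin, resistin and adipsin. Brown and beige adipocytes burn fatty acids through uncoupling protein 1 instead. PPARγ is the nuclear receptor that drives differentiation of both kinds, and most of the other genes here are among its known targets.

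The signals are log2 values relative to the 75th percentile of the same array, so 0 is that percentile, and levels of different genes were not compared. Across the 20 arrays, 92 to 204 spots were marked as outliers and none was saturated, and 53.0% to 68.1% of spots were well above background. The 75th percentile ranged from 294 to 996, lowest in VC mouse 2. It lay between 548 and 964 in LFA and between 530 and 996 in NTL, and was at most 648 in the other groups. Since it sets the scale of each array, changes under other normalizations are given below. The arrays came on 3 slides of 5, 8 and 7, by the barcodes in the file headers. Slide 1 held no SFA or NTL array and slide 3 no NTS array. Nothing in the labels says more of the mice than their number, so p-values measure the spread among these mice.

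Some adipocyte genes were lower after long nanotubes, and Cidec also after long amosite. A gene is called when the change from VC is at least 1 on the log2 scale, which is 2-fold, and the adjusted p from limma with Benjamini-Hochberg adjustment over all tested probes is under 0.05. In NTL against VC, 5 of the 10 genes were called lower, namely Retn, Cidec, Adipoq, Cfd and Pparg, while 3.18% of all tested probes were called lower. In LFA against VC only Cidec was called, 1 of 10 beside 1.72% of all probes. No gene of the set was called higher in either comparison, where 2.22% of probes were called higher for LFA and 3.63% for NTL. The change was below 0 for 10 of 10 genes in both, with a median of -1.33 for NTL and -0.84 for LFA. Over all tested probes, 65.3% of changes were below 0 for NTL and 66.0% for LFA. The median change over those probes was itself below 0, at -0.25 for NTL and -0.28 for LFA. Relative to those medians, the median of the 10 genes was -1.08 for NTL and -0.57 for LFA, and each of the 10 genes stayed below in both.

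Short fibers gave no call by limma. In SFA against VC, 0 of 10 genes were called (0% of all probes were called lower), and 0 had an unadjusted p under 0.05. For SFA, 6 of 10 changes were below 0, near the 61.2% of all probes, with a median of -0.10. In NTS against VC, 0 of 10 were called (0% of all probes), and 1 had an unadjusted p under 0.05. For NTS, 9 of 10 changes were below 0, beside 56.6% of all probes, with a median of -0.42. The 4 comparisons share the VC mice, so their values stand side by side and are not independent of each other.

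**Figure D1:**
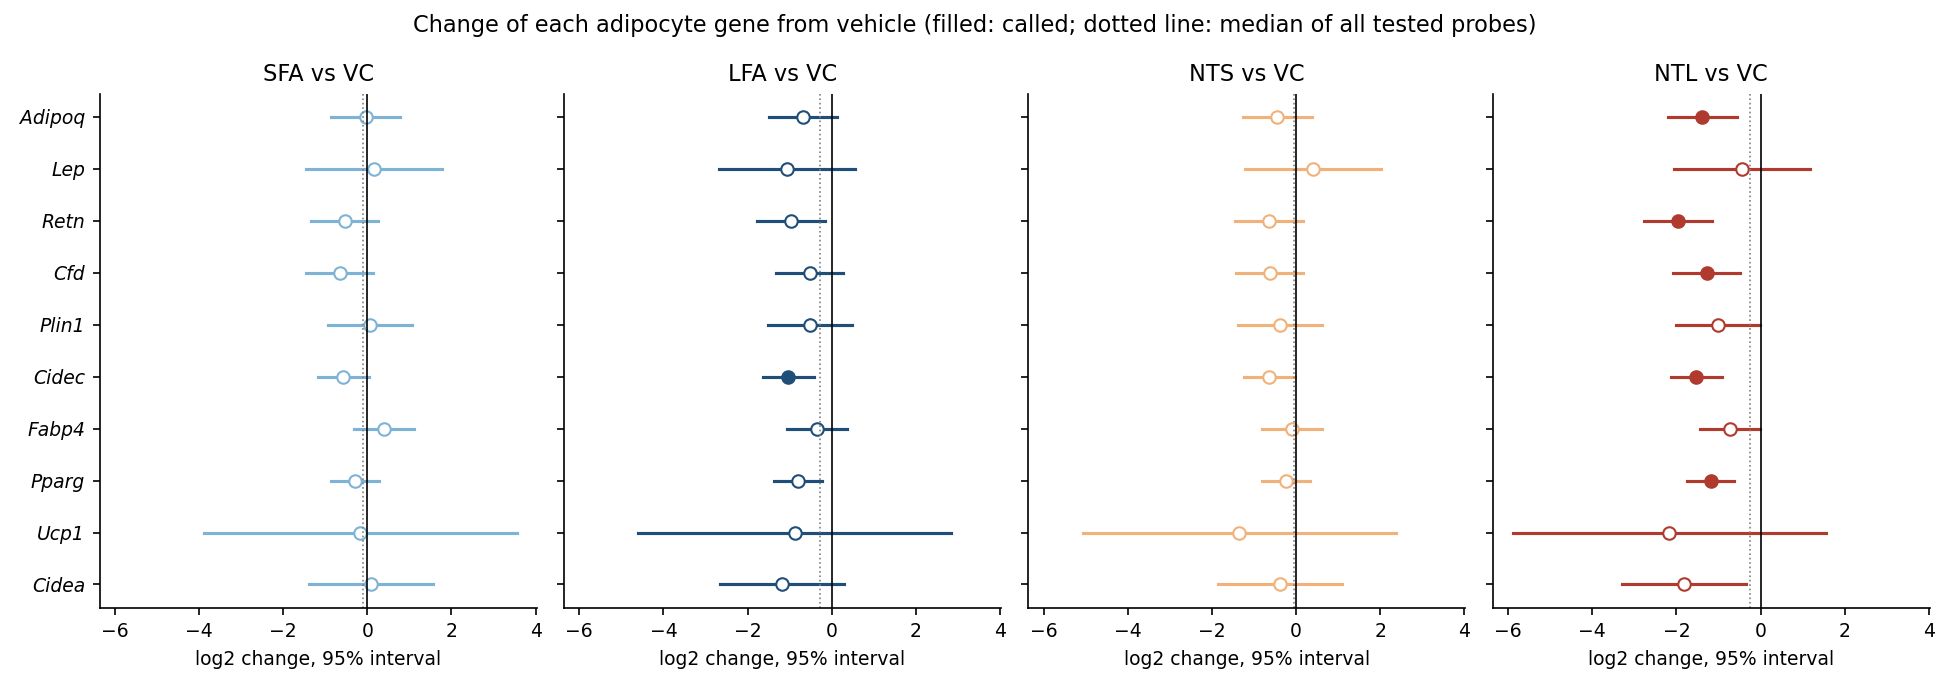
The log2 change of each adipocyte gene from VC (horizontal axis) with its 95% interval, 1 panel per fiber group; filled points are called and the dotted line is the median change of all tested probes. Retn, Cfd, Cidec, Adipoq and Pparg are filled for NTL and Cidec alone for LFA, and the intervals of Ucp1 and Lep are the widest among the 10 genes.

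Retn encodes resistin, a hormone that mouse adipocytes secrete and that opposes insulin action. One of its probes lies at chr8:3657312-3657371 (mm9, plus strand), and its sequence is shown because both Retn probes gave the largest called change of the set.
Retn probe A_55_P1984806: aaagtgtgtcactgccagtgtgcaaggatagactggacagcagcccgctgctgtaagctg
The brighter Retn probe read 6.22, 7.72, 5.84 and 6.22 in the 4 VC mice and 4.69, 4.89, 4.52 and 4.09 in the 4 NTL mice. Every NTL mouse was below every VC mouse. The change was -1.95 ± 0.38 (SE), or 3.88-fold lower, with a limma adjusted p of 0.0047. LFA mice read 5.69, 4.86, 5.62 and 5.95, a change of -0.97 ± 0.38 that was not called (limma adjusted p = 0.14). SFA mice lay between 5.48 and 6.69 and NTS mice between 5.54 and 6.54, so both overlapped VC. The second probe changed by -1.86 ± 0.38 for NTL (limma adjusted p = 0.0063), and across the 20 arrays the 2 probes differed from each other by between -0.33 and 0.11. The call for NTL was kept in all 11 alternative settings and each time 1 array was left out, with limma adjusted p from 0.0019 to 0.029.

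Adiponectin, the product of Adipoq, is a hormone made almost only by adipocytes, which makes its RNA a common measure of how much fat a sample holds. Its probe lies at chr16:23157576-23157635 (mm9, plus strand).
Adipoq probe A_51_P458451: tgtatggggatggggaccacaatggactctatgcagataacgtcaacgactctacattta
Adipoq read 6.06, 6.96, 5.47 and 6.19 in VC mice and 4.68, 5.42, 4.77 and 4.27 in NTL mice. The highest NTL mouse was just under the lowest VC mouse, so the groups did not overlap. The change was -1.39 ± 0.39, or 2.61-fold lower (limma adjusted p = 0.036). With slide as a block it was -1.10 and no longer called (limma adjusted p = 0.12, with 0.0073 to 0.12 over the 11 settings). The call was kept in 5 of 11 settings and also lost under quantile normalization, no filter, the replicate block, a fit of only the groups compared and median centring. Without VC mouse 2 the change was -1.12 (limma adjusted p = 0.11). The call was also lost without VC mouse 1 or 4 or NTL mouse 1, 3 or 4, with limma adjusted p from 0.063 to 0.12. Within slides, NTL was lower than VC by 1.83 on slide 2 and by 0.65 on slide 3. In LFA, mouse 2 read 4.42 and the other 3 mice 5.63 to 6.11, and the change was -0.68 ± 0.39 (limma adjusted p = 0.29). Group means ran from 6.17 ± 0.61 (SD, n = 4) in VC through 6.13 ± 0.39 in SFA, 5.73 ± 0.50 in NTS and 5.49 ± 0.74 in LFA to 4.78 ± 0.48 in NTL. Each neighboring pair in that order overlapped.

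Cfd encodes adipsin, complement factor D, a protease that adipocytes secrete in large amounts in mice. It read 8.63, 9.61, 8.23 and 7.97 in VC mice and 7.48, 7.75, 7.46 and 6.65 in NTL mice. The groups did not overlap, and the change was -1.27 ± 0.38, or 2.42-fold lower (limma adjusted p = 0.046). The call was lost in 6 of 11 settings, with limma adjusted p up to 0.19. It was kept without VC mouse 4 or NTS mouse 2, 3 or 4, and lost without any of the other 16, with limma adjusted p up to 0.16. VC mouse 2, the array with the lowest 75th percentile, had the highest Cfd value of all, and without it the change was -0.94. That array also had the lowest share of spots well above background, 53.0%, and the highest values of Adipoq, Cidea and the brighter Retn and Cidec probes. For Cfd, SFA, LFA and NTS mice ranged from 6.89 to 8.73 and overlapped VC.

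Lep, which encodes the satiety hormone leptin, was called in no comparison by limma. It was dim, well above background on 19 of 20 arrays, and was spotted 10 times on each array. VC mice read -2.28, -5.56, -2.45 and -0.66, a spread wider than that of any fiber group. NTL mice read between -3.66 and -2.63 and LFA mice between -4.36 and -3.04. The change for NTL was -0.44, with a 95% interval from -2.06 to 1.18 that holds changes in both directions. Without VC mouse 4 the change for NTL was 0.25, the opposite direction. Without VC mouse 2, the only array where Lep was not well above background, it was -1.38, and the change for LFA went from -1.06 to -1.997. Neither was called by limma.

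**Figure D2:**
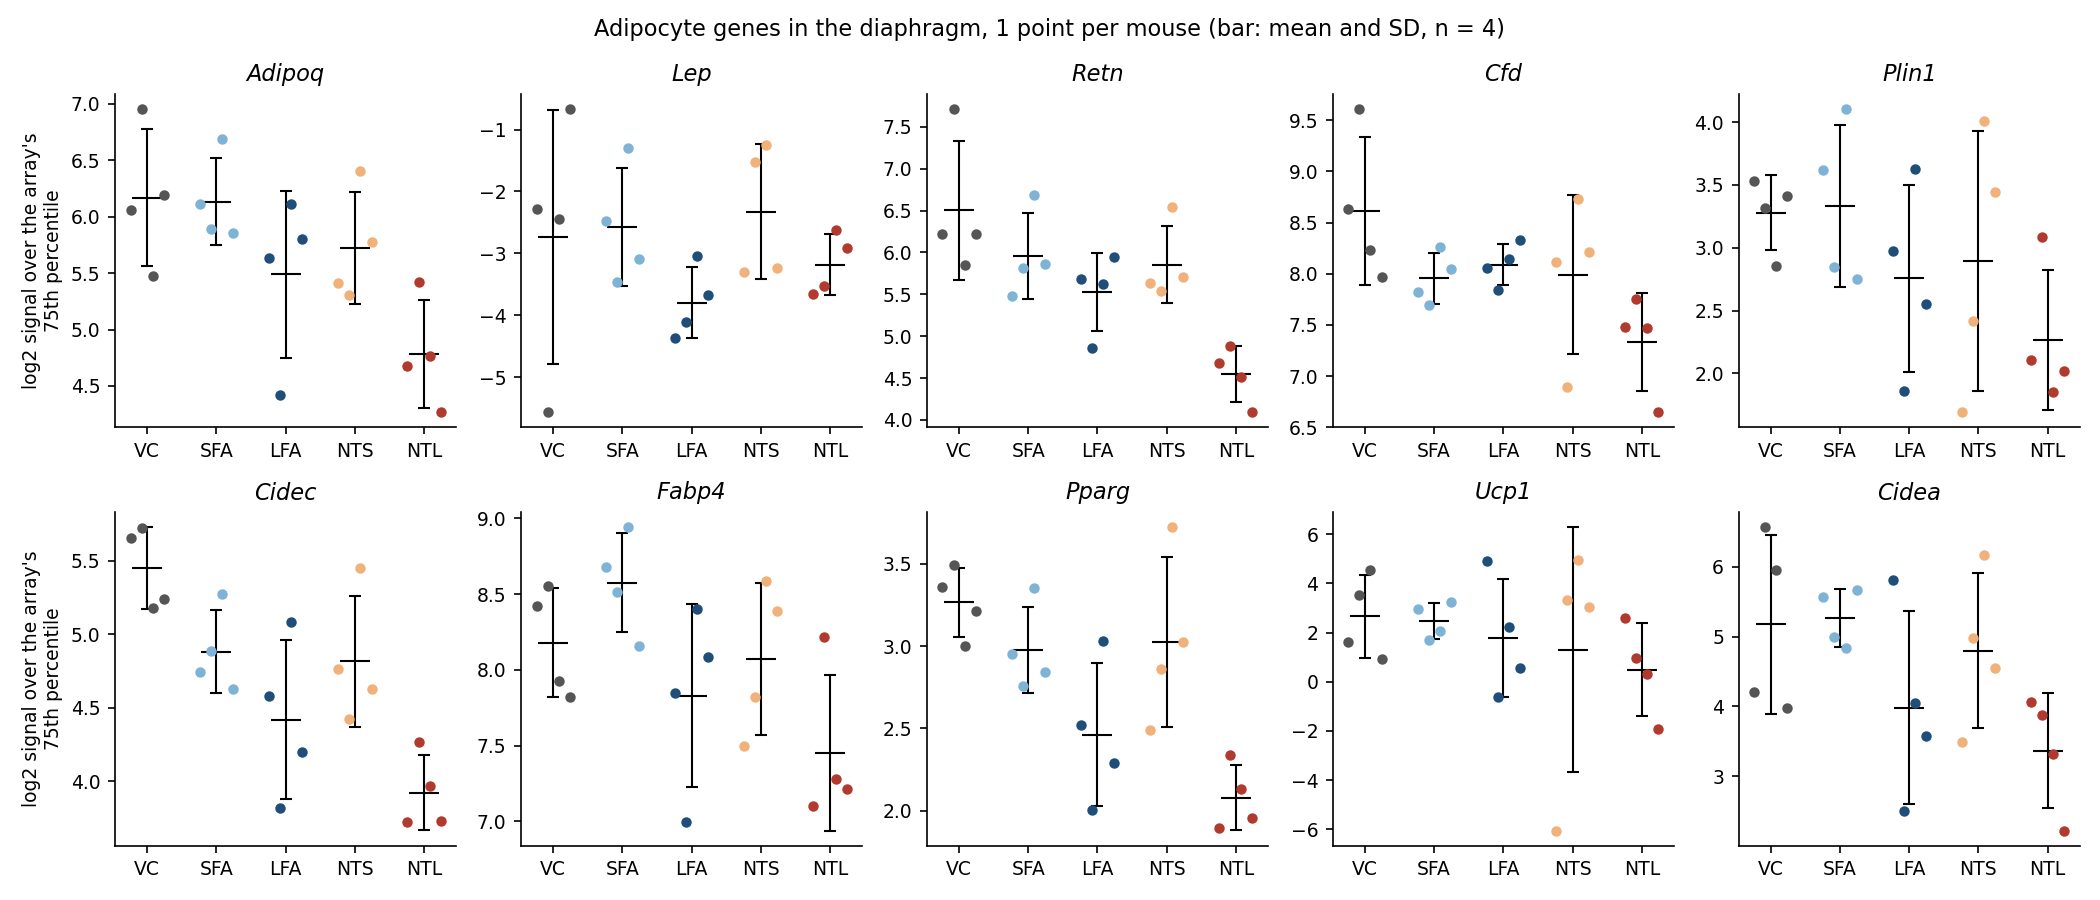
Log2 signal over the 75th percentile of the array (vertical axis) for each of the 10 genes, 1 point per mouse in the groups VC, SFA, LFA, NTS and NTL, with the mean and SD of 4 mice as bars; each panel has its own axis. NTL mice lie below all VC mice for Retn, Adipoq, Cfd, Cidec and Pparg, while VC and NTL overlap for Lep, Plin1, Fabp4, Ucp1 and Cidea.

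Of the droplet and fatty acid binding proteins, Cidec changed most. CIDEC sits where droplets touch and lets small droplets merge into the large one of the white adipocyte. Its brighter probe read 5.65, 5.72, 5.18 and 5.24 in VC mice, 4.58, 3.82, 5.08 and 4.20 in LFA mice and 3.72, 4.27, 3.97 and 3.73 in NTL mice. All mice of both long-fiber groups were below all VC mice. The change was -1.03 ± 0.29 for LFA (limma adjusted p = 0.049) and -1.53 ± 0.29 for NTL (limma adjusted p = 0.0034), which is 2.04-fold and 2.88-fold lower. The LFA call was kept in 3 of 11 settings, with limma adjusted p from 0.018 to 0.15, and was kept without LFA mouse 3 or NTS mouse 2, 3 or 4 and lost without any of the other 16. The NTL call was kept in 10 of 11. Cidec was also lower in NTS, at 4.76, 4.42, 5.45 and 4.62 (-0.63 ± 0.29), and in SFA, at 4.74, 4.89, 5.27 and 4.62 (-0.57 ± 0.29), with limma adjusted p near 1 for both.

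The second Cidec probe lies toward the 5′ side of the transcript, at chr6:113378116-113378175 on the minus strand (mm9), while the brighter one is at 113374630-113374689. It is printed because the 2 probes disagreed.
Cidec probe A_55_P1969128: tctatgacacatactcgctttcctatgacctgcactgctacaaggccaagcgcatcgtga
This probe ranged from -1.56 to 2.85 over the 20 arrays and fell within VC alone from 2.85 to -1.19. Its change was -1.56 ± 0.90 for LFA (limma adjusted p = 0.30) and -1.42 ± 0.90 for NTL (limma adjusted p = 0.36), neither called. The mean over both probes took the NTL change to an adjusted p of 0.054 by limma. The difference between the probes followed, over the 20 arrays, an index of RNA quality (r = 0.93), the mean of the 5′ minus the 3′ probe over 1564 transcripts whose probes were separated by 1000 bases or more. That index ranged from -1.63 to -0.63 and overlapped in all groups. VC mouse 2 was at -1.54 and the other VC mice between -0.91 and -0.69. With the index as a covariate, 5 genes were called in NTL against VC and 1 in LFA against VC. Over all tested probes, that fit called 2285 lower in NTL and 1640 in LFA, beside 1174 and 634 without the index.

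Plin1 encodes perilipin 1, the coat of the droplet that gates lipolysis. VC mice lay between 2.85 and 3.53, NTL mice between 1.85 and 3.08 and LFA mice between 1.86 and 3.63. Only NTL mouse 2, at 3.08, reached into the range of VC, and the change of -1.01 ± 0.47 was not called (limma adjusted p = 0.20). Fabp4, the fatty acid carrier of the adipocyte cytosol that macrophages and capillary endothelium also make, lay between 7.82 and 8.55 in VC mice. NTL mice lay between 7.10 and 8.22, again with mouse 2 highest, and the change was -0.73 ± 0.34 (limma adjusted p = 0.20). Its mean was highest in SFA, at 8.57 ± 0.33, beside 8.18 ± 0.36 in VC, and the 0.39 between them was not called (limma adjusted p = 0.999). Under quantile normalization the LFA change of Fabp4, -0.35, turned to 0.12, and its NTL change, -0.73, to -0.13.

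Pparg, the gene of PPARγ, had the smallest spread of the set within groups, with a residual SD of 0.35 beside a median of 0.57 over all tested probes. VC mice read 3.36, 3.49, 3.003 and 3.22, LFA mice 2.52, 2.01, 3.03 and 2.29, and NTL mice 1.89, 2.34, 2.13 and 1.95. All NTL mice were below all VC mice, and in LFA only mouse 3 was above the lowest VC mouse. The change was -1.19 ± 0.27 for NTL, or 2.28-fold lower (limma adjusted p = 0.012). For LFA it was -0.80 ± 0.27, which stayed below the 2-fold threshold (limma adjusted p = 0.090). The NTL call was kept in all 11 settings and each time 1 array was left out, with limma adjusted p from 0.0040 to 0.050.

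Of the whole set, the brown fat gene Ucp1 varied most from mouse to mouse. Lep and Cidea came next, with residual SDs of 1.17 and 1.06. Ucp1, the proton channel of brown fat mitochondria, ranged from -1.93 to 4.94 over the 19 arrays where it was well above background, and its residual SD over all 20 of 2.74 was above that of 99.0% of tested probes. Its probe lies at chr8:85821788-85821847 (mm9, plus strand) and is shown as the most variable one.
Ucp1 probe A_51_P426353: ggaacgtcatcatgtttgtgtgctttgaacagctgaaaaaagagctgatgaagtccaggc
VC mice read 1.63, 3.52, 4.56 and 0.91, SFA mice 2.96, 1.69, 2.05 and 3.25, and LFA mice 4.91, -0.62, 2.24 and 0.57. NTS mice read -6.05, 3.32, 4.94 and 3.04, and NTL mice 2.61, 0.97, 0.31 and -1.93. All groups overlapped. NTS mouse 1, at -6.05, was the only array where Ucp1 was not well above background. The change for NTL was -2.17 ± 1.77, with a 95% interval from -5.89 to 1.55 (limma adjusted p = 0.50), so these mice set no useful limit on it. The direction between NTL and NTS was not stable: the difference of -0.82 became 0.0029 with slide as a block, 0.39 without NTS mouse 3 and -3.28 without NTS mouse 1, the mouse not well above background.

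Cidea, a relative of CIDEC that is abundant in brown and beige fat, read 4.21, 6.57, 5.96 and 3.97 in VC mice. LFA mice read 5.81, 2.49, 4.04 and 3.58 and NTL mice 4.06, 3.87, 3.32 and 2.22. The change was -1.81 ± 0.70 for NTL (limma adjusted p = 0.12) and -1.19 ± 0.70 for LFA (limma adjusted p = 0.30). NTL mouse 1, at 4.06, was above VC mouse 4, so the groups overlapped.

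Whether every mouse of a group lay beyond VC was also counted. In NTL, 5 of 10 genes had all 4 mice below all VC mice, beside 13.8% of tested probes. In LFA this held for 1 of 10, beside 11.6% of probes.

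Fiber length was tested within each material. In NTL against NTS, 1 of 10 genes was called lower by limma, Retn at -1.31 ± 0.38 (adjusted p = 0.041), beside 2.71% of all probes. All 10 changes were below 0, beside 64.3% of all probes, with a median of -0.87 beside -0.26 over all probes. Pparg at -0.94 ± 0.27 passed on p (limma adjusted p = 0.037) but not on size, and Cidec at -0.89 ± 0.29 on neither (limma adjusted p = 0.059). The Retn call was kept in 6 of 11 settings, with limma adjusted p up to 0.26 under the slide block. It was lost without SFA mouse 4, NTS mouse 1, 2 or 3, or any NTL mouse, with limma adjusted p up to 0.13. In LFA against SFA, 0 of 10 were called by limma, beside 380 of 36920 probes called higher and 49 (0.133%) called lower. Of the 10 genes, 1 had an unadjusted p under 0.05. For 9 of 10 the change was below 0, beside 63.7% of all probes, with a median of -0.61 beside -0.17. The test of whether the length effect differed between nanotubes and asbestos called 0 of 10 genes (0% of all probes), and 0 had an unadjusted p under 0.05 in limma.

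When both long-fiber groups were set against the mean of VC, SFA and NTS, 2 genes were called lower, Cidea at -1.40 ± 0.45 (limma adjusted p = 0.033) and Retn at -1.07 ± 0.25 (limma adjusted p = 0.0056), beside 4.14% of all probes. Cidec at -0.88 ± 0.18, Pparg at -0.82 ± 0.17, Adipoq at -0.87 ± 0.25 and Fabp4 at -0.63 ± 0.22 passed on p and stayed under the 2-fold threshold. The call of Cidea was lost without VC mouse 3, SFA mouse 4, LFA mouse 2 or 4, NTS mouse 2 or 3, or NTL mouse 3 or 4, with limma adjusted p up to 0.078. That of Retn was lost on size without VC mouse 2, SFA mouse 3, LFA mouse 2, NTS mouse 3 or NTL mouse 4, at -0.99 to -0.93. The test of any difference between the 4 fiber groups and VC called 3 of 10 genes, Retn, Cidec and Pparg, beside 5.89% of all probes. The 2 long fibers differed from each other in no call by limma, with 0 of 10 genes (0% of all probes) and 1 at an unadjusted p under 0.05, Retn, which was 0.98 higher in LFA. Of the 10 genes, Lep alone had a lower mean in LFA than in NTL. The median difference was 0.56, at doses that were not matched.

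The 10 genes did not vary as 1 block from mouse to mouse. After each group's mean was subtracted, 24 of 45 pairs of genes correlated over the 20 mice by a two-sided permutation test on Pearson r with Benjamini-Hochberg adjustment, and 19 by Spearman rho. Deviations were permuted over all 20 mice without regard to group. Subtracting group means leaves fewer independent values than mice, so these p-values run too small. Pairs near the threshold are not secure, such as Retn with Plin1 and Cfd with Pparg, both at a permutation adjusted p of 0.045. Of the 21 pairs among Adipoq, Retn, Cfd, Plin1, Cidec, Fabp4 and Pparg, 20 passed, with r from 0.42 to 0.90 and a median of 0.77. How many pairs of other genes would pass was not measured, so these counts do not set the genes apart from others. Plin1 and Pparg were the most closely tied, at r = 0.90 and rho = 0.87 (permutation adjusted p = 7.5e-05, from 1e-05, the smallest p that 100000 permutations can give). They kept r = 0.86 without the 2 mice farthest from the median of Plin1, 0.89 within the 8 arrays of slide 2 and 0.91 within the 7 of slide 3. Slide 1, with 5 arrays, was too small for a value of its own.

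The deviations of Ucp1 and Cidea correlated at r = 0.81 and rho = 0.90 (permutation adjusted p = 7.5e-05), at r = 0.86 without 2 mice, 0.80 on slide 2 and 0.98 on slide 3. Adipoq and Ucp1, in contrast, gave r = 0.33 and rho = 0.32 (permutation adjusted p = 0.21), and Adipoq and Cidea r = 0.47 and rho = 0.42 (permutation adjusted p = 0.063). Cidea passed with Retn, at r = 0.51 and rho = 0.44 (permutation adjusted p = 0.045), though near the threshold and not by rho. On values that keep the group differences, Cidea passed with all 7 genes of the block. Ucp1 passed with 2 genes besides Cidea, Plin1 at 0.54 and Pparg at 0.52, but Plin1 fell to 0.19 without 2 mice and neither passed by rho. Lep passed with none of the other 9 genes, with r from -0.45 to 0.30. Its r with Retn was -0.87 on slide 2 and 0.45 on slide 3.

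**Figure D3:**
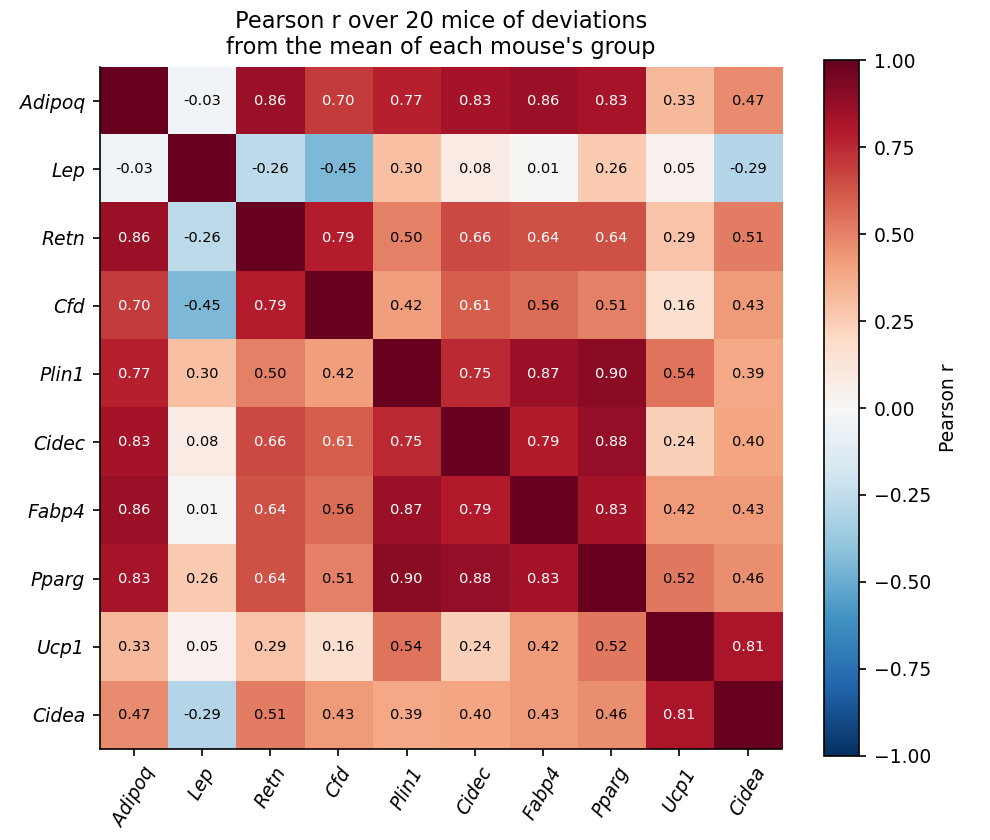
Pearson r over 20 mice for each pair of the 10 genes, on deviations from the mean of each mouse's group, from blue (-1) to red (1). Adipoq, Retn, Cfd, Plin1, Cidec, Fabp4 and Pparg form a red block, Ucp1 and Cidea correlate with each other at 0.81, and the row of Lep runs from -0.45 to 0.30.

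Beyond the set, the 6 other genes whose signal was most like that of Adipoq over all 20 arrays, of 25504 genes ranked, were Mogat1 (r = 0.95), Bcl2l10 (0.93), Adig (0.93), Cldn22 (0.91), Sik2 (0.90) and Cib2 (0.89). Mogat1 makes diacylglycerol from monoacylglycerol and Adig encodes adipogenin, a small adipocyte membrane protein. These r values include the differences between groups and are given as a description. Within the set, Retn ranked 5 among all genes at r = 0.92 and Fabp4 10 at 0.89, while Ucp1 ranked 6784 at 0.43 and Lep 12908 at 0.15.

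The promoters of the set were searched for letters that adipocyte factors are known to read, in the 250 bases before the start. RefSeq promoters (GRCm38.p6) were at hand for 8 of the genes with 11 starts; Fabp4 and Cidea are named only. The direct repeat of AGGTCA with 1 base between, the form PPARγ and RXR read, was in 0 of 11, as was the repeat with AGGNCA in both copies; the table of 32851 promoters holds them in 0.0335% and 0.338%. TTGCNNAA, a C/EBP form, was in 4 of 11 promoters, of Lep, Plin1, 1 of 3 starts of Pparg and 1 of 2 starts of Cidec, beside 9.56% of all. TATAAA was in 1 of 11, at another start of Pparg, beside 12.4% of all. Both strands were read, and a match is only a match of letters. The promoters of Plin1 and Pparg, the most closely tied pair, and of Adipoq and Retn, are shown with TTGCNNAA in capitals. Those of Adipoq and Retn hold none of the motifs.
Plin1, chr7:79732777-79733026, minus strand: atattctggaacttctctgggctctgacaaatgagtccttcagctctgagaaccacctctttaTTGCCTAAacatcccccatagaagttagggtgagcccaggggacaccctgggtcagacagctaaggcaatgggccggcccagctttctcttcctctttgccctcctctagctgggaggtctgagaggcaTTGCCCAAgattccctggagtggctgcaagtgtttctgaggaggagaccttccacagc
Pparg, chr6:115421816-115422065, plus strand: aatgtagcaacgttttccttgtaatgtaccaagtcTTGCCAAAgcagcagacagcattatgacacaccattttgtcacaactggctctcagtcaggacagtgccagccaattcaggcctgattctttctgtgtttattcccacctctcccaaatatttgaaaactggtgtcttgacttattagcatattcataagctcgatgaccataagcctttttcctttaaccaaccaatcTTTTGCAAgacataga
Adipoq, chr16:23146286-23146535, plus strand: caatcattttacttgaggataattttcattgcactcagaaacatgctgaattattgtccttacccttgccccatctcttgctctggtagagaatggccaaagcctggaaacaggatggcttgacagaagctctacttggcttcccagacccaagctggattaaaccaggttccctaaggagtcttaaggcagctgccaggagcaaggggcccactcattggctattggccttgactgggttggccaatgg
Retn, chr8:3655520-3655769, plus strand: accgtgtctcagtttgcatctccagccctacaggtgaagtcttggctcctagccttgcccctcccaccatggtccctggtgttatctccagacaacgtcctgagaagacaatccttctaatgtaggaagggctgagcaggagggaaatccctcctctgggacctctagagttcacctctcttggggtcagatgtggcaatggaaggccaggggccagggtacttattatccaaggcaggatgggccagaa

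The other genes of adipocyte biology were taken from a list of 68, of which 67 were tested. In NTL against VC, 17 were called lower and 1 higher by limma, beside 3.18% and 3.63% of all probes, with a median change of -0.90. In LFA against VC, 7 were called lower and 1 higher, beside 1.72% and 2.22%, with a median of -0.63, and in SFA and NTS none was called by limma, with 5 and 6 at an unadjusted p under 0.05. Many of these genes are also active in skeletal muscle, and how much of their RNA came from fat was not tested.

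Fatty acid synthesis had the lowest median of the 8 roles in NTL, at -1.48. All 7 genes were below 0, beside 65.3% of all probes, and 3 were called lower, beside 3.18% of all probes. Thrsp, a lipogenic regulator, changed by -1.67 ± 0.48 (limma adjusted p = 0.040), Acaca, acetyl-CoA carboxylase, by -1.56 ± 0.44 (limma adjusted p = 0.038) and Fasn, fatty acid synthase, by -1.54 ± 0.47 (limma adjusted p = 0.050). In LFA all 7 were below 0, beside 66.0% of all probes. There, none was called by limma, with 2 at an unadjusted p under 0.05.

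For uptake and triglyceride synthesis, 3 of 11 genes were called lower in NTL and 2 in LFA, beside 3.18% and 1.72% of all probes. Dgat2, which adds the last fatty acid to triglyceride, changed by -1.46 ± 0.27 in NTL and -1.17 ± 0.27 in LFA. Slc2a4, the insulin-regulated glucose transporter of fat and muscle, changed by -1.34 ± 0.31 and -1.32 ± 0.31, and all 4 of these changes were called. Lpin1, the phosphatidic acid phosphatase that muscle also makes, was called in NTL at -1.22 ± 0.35.

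For lipolysis, the changes of all 9 genes were below 0 in both long-fiber groups. Over all probes, 65.3% were below 0 in NTL and 66.0% in LFA. Of the 9 genes, 2 were called lower in NTL and 1 in LFA, beside 3.18% and 1.72% of all probes. Pnpla2, the first lipase of the droplet, changed by -1.21 ± 0.24 in NTL (limma adjusted p = 0.0045) and -1.17 ± 0.24 in LFA (limma adjusted p = 0.012). Its coactivator Abhd5 was called in NTL at -1.09 ± 0.26.

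Among genes of brown fat thermogenesis, 3 of 10 were called lower and 1 higher in each long-fiber group. Over all probes, 3.18% were called lower and 3.63% higher in NTL, and 1.72% lower and 2.22% higher in LFA. Ppargc1a, the coactivator that drives mitochondrial genes in brown fat and in muscle, changed by -2.23 ± 0.43 in NTL (limma adjusted p = 0.0044) and -1.72 ± 0.43 in LFA (limma adjusted p = 0.034). In SFA it changed by -0.70 and in NTS by -1.07, both ± 0.43 and not called. Cpt1b, the muscle and brown fat enzyme that admits fatty acids to mitochondria, was called in LFA at -1.37 ± 0.36, and read -1.15 ± 0.36 in NTL (limma adjusted p = 0.057). Lhx8, a LIM homeobox gene listed with classical brown fat, was called higher, but in the VC, SFA and NTS mice its signal never rose well above background. For such a gene only a bound can be given, against the higher, on each dim array, of its own signal and the lowest signal among probes well above background. Its NTL mean of -4.33 was at least 1.58-fold higher than VC, whose measured mean was -7.03, and all 4 NTL mice were well above background. In LFA, 3 of 4 mice were well above background and the bound was at least 1.20-fold. Lhx8 passed the filter on dim probes only through the groups where it was high, so its call, the 1 higher in each count, is no support for a difference.

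Of transcription factors other than PPARγ, 1 of 9 was called lower in NTL, beside 3.18% of all probes. It was Rxra, the partner of PPARγ, at -1.01 ± 0.27 (limma adjusted p = 0.027). In LFA 0 of 9 were called by limma, beside 1.72% of all probes, with 2 at an unadjusted p under 0.05. The same shares of all probes stand beside the other counts of this paragraph. Irs2, which relays insulin signaling, was the 1 of 7 receptors and adaptors called in NTL, at -1.61 ± 0.28 (limma adjusted p = 0.0018). It was also lower in LFA at -0.93, SFA at -0.86 and NTS at -0.84, each ± 0.28 and not called. In LFA 0 of 7 were called by limma, with 2 at an unadjusted p under 0.05. Other secreted products had 3 of 8 called lower in NTL and 0 in LFA, where 3 had an unadjusted p under 0.05 in limma. They were Nrg4, a growth factor of brown fat, at -1.61 ± 0.40, Nampt, also an enzyme of NAD synthesis, at -1.17 ± 0.35, and Sfrp5, a secreted Wnt inhibitor, at -1.16 ± 0.32.

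Progenitor genes went both ways, with a median of 0.04 in NTL and 0.05 in LFA. Dlk1, which marks preadipocytes and holds back their differentiation, was the 1 of 6 called, at -1.85 ± 0.36 in NTL (limma adjusted p = 0.0042) and -1.85 ± 0.36 in LFA (limma adjusted p = 0.0083). Over all probes, 3.18% were called lower in NTL and 1.72% in LFA. Pdgfra, a marker of fibroblastic progenitors, read 0.92 in NTL and 0.82 in LFA and was called in neither.

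**Figure D4:**
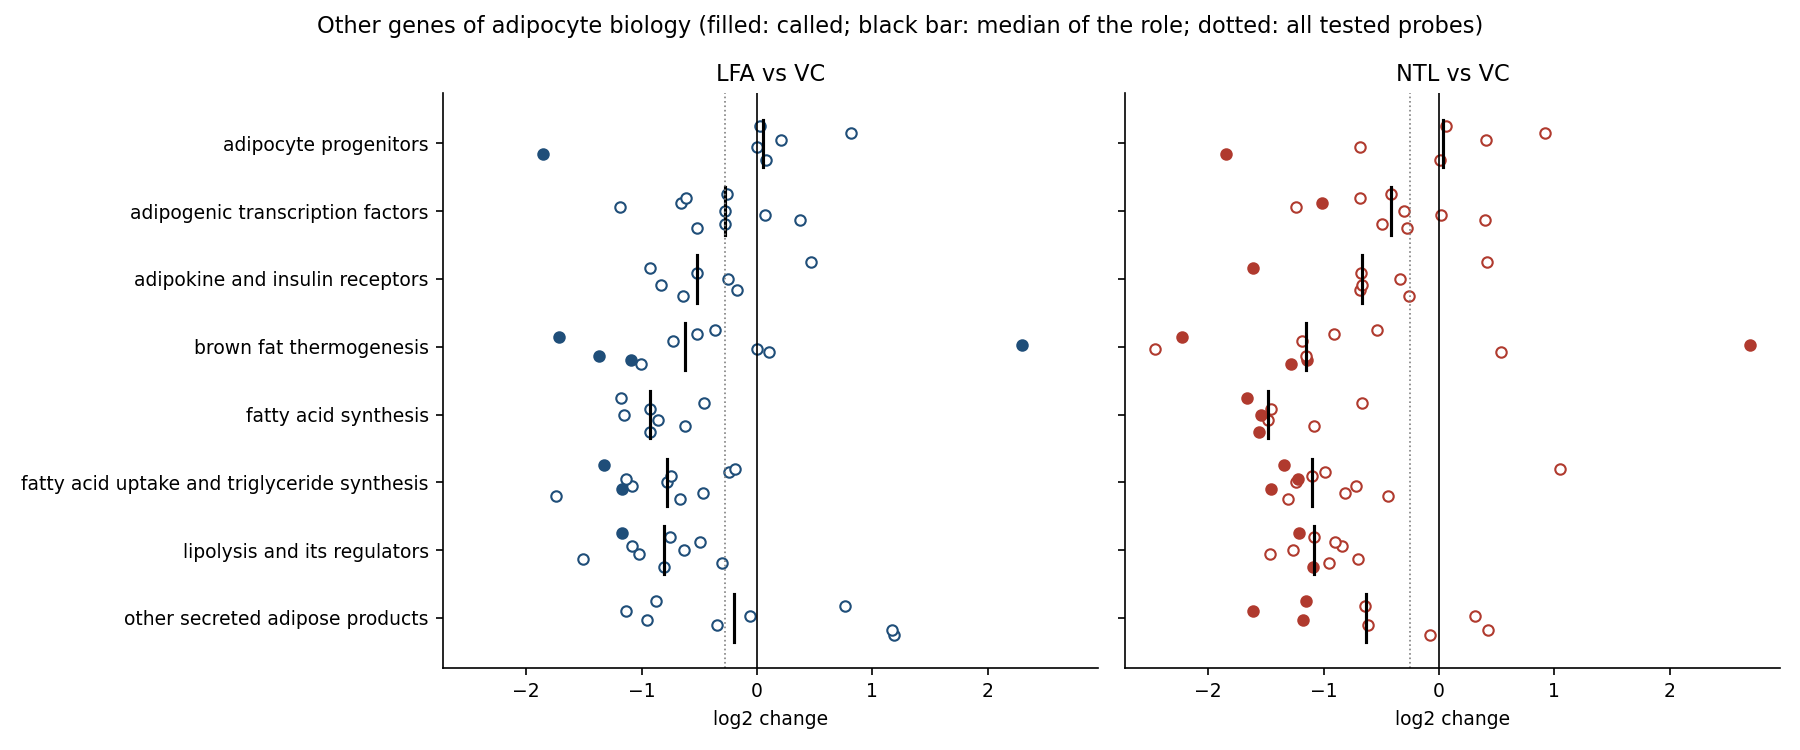
The log2 change from VC (horizontal axis) of 67 other genes of adipocyte biology in LFA and in NTL, 1 row per role and 1 point per gene, filled where called, with the median of each role as a black bar and that of all tested probes as a dotted line. Fatty acid synthesis has the lowest median in NTL, at -1.48, and progenitor genes have a median of 0.04, with Dlk1 at -1.85 and Pdgfra at 0.92.

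Markers of other cells moved in the same mice. Macrophage markers had 5 of 8 called higher in both long-fiber groups, beside 3.63% of all probes in NTL and 2.22% in LFA. Among them was Cd68, at 2.39 ± 0.34 in NTL and 1.95 ± 0.34 in LFA. Of these 8 markers, 1 had a change below 0 in NTL and 2 in LFA. Their summed level lay between 7.39 and 7.76 in NTL and between 6.91 and 7.65 in LFA, above the VC range of 6.10 to 6.78. Skeletal muscle markers had 9 of 9 changes below 0 in both, beside 65.3% of all probes in NTL and 66.0% in LFA. The median was -1.34 in NTL and -1.01 in LFA. In SFA 9 of 9 and in NTS 8 of 9 were also below 0, beside 61.2% and 56.6% of all probes, with medians of -0.32 and -0.24 and no call. Beside 3.18% and 1.72% of all probes, 4 of these muscle markers were called lower in NTL and 2 in LFA. Their summed level lay between 10.61 and 10.95 in NTL and between 10.72 and 11.20 in LFA, below the VC range of 11.68 to 12.33. Collagen and matrix markers had 3 of 5 called higher in NTL and 1 in LFA, beside 3.63% and 2.22% of all probes. The summed level of these markers overlapped VC in both. In each group 1 of these 5 had a change below 0.

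Of 7 endothelial markers, Gpihbp1, which holds lipoprotein lipase on capillaries of fat and muscle, was the 1 called lower, at -1.37 ± 0.23 in NTL and -1.02 ± 0.23 in LFA. Over all probes, 3.18% were called lower in NTL and 1.72% in LFA. The summed endothelial level lay between 5.02 and 5.45 in NTL and between 5.14 and 5.53 in LFA, below the VC range of 5.78 to 6.02. Liver markers spread over 2.39 to 12.05 among all 20 arrays, with VC from 3.20 to 8.19. Their 8 changes were above 0 in all 4 fiber groups against VC, with medians of 1.81 in SFA, 2.02 in LFA, 3.49 in NTS and 2.13 in NTL. By limma 0 were called and 0 had an unadjusted p under 0.05. With the liver level as a covariate, 5 of the 10 adipocyte genes were called in NTL and 1 in LFA. Over all tested probes, that fit called 1023 lower in NTL and 414 in LFA, beside 1174 and 634 without it. By limma, 0 of 6 mesothelial markers were called in either long-fiber comparison, with 1 at an unadjusted p under 0.05 in LFA. Of 6 neutrophil markers, 4 of skin and mammary epithelium and 1 of lung, 0 were called by limma and 0 had an unadjusted p under 0.05. The part of macrophages, matrix, muscle and endothelium in the adipocyte values was not tested.

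**Figure D5:**
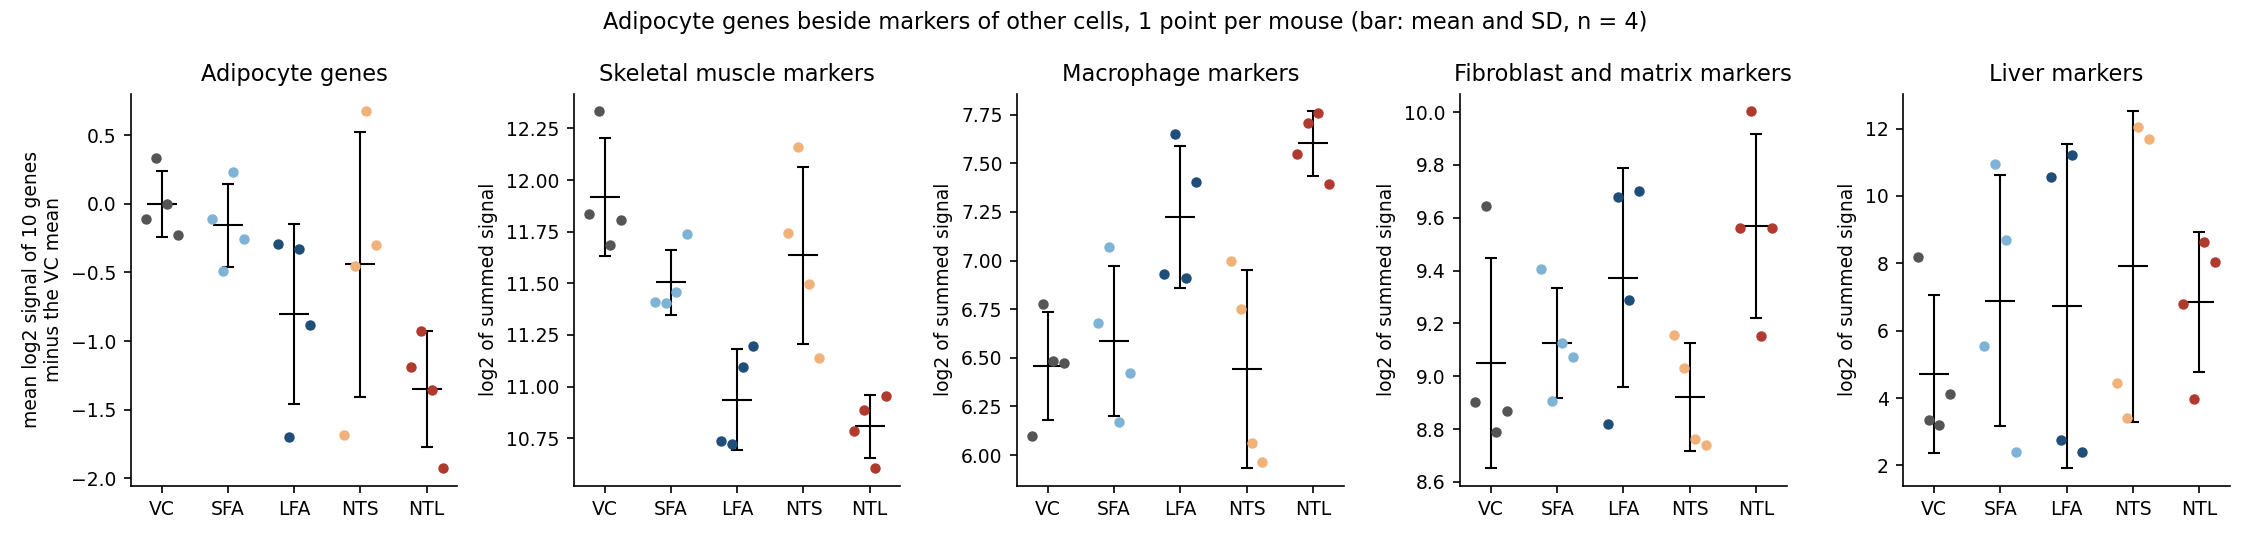
Mean log2 signal of the 10 adipocyte genes minus the VC mean, and log2 summed signal of skeletal muscle, macrophage, fibroblast and matrix, and liver markers (vertical axes), 1 point per mouse by group, with the mean and SD of 4 mice as bars. In NTL, adipocyte and muscle values lie below and macrophage values above those of all VC mice, while liver markers spread over 2.39 to 12.05 with all groups overlapping.

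Slides were compared as the only known batch. Within slides the median change of the 10 genes in NTL was -1.46 on slide 2 and -0.90 on slide 3, and in LFA -0.28, -0.76 and -1.03 on slides 1, 2 and 3. The short fibers gave both signs, with -0.38 and 0.18 for SFA on slides 2 and 3 and 0.24 and -1.15 for NTS on slides 1 and 2. Each within-slide value rests on 1 to 3 fiber mice and 1 or 2 VC mice. With slide as a block, 3 of the 5 NTL calls held, those of Retn, Cidec and Pparg.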

How the data were processed

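The authors labeled RNA from the frozen part of each diaphragm with Cy3, hybridized 1 Agilent 60K array per mouse and deposited the scanner files, with spot intensity from Agilent Feature Extraction 10.7.3.1 per the file headers, and a table of log2 normalized group means made in GeneSpring. Probe positions are those of mm9 (NCBI37). The table holds no values of single mice; its differences between groups matched those computed here within 0.048 for all 12 probes.

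The deposited gProcessedSignal intensity, already background-subtracted and detrended, was averaged over the spots of a probe without outlier flags, taken as log2 and lowered by the log2 of the array's 75th percentile of noncontrol spots. limma 3.58.1 in R 4.3.3 was fitted to all 20 arrays with a mean per group, in place of the unequal-variance ANOVA of the study's methods, which was run as an alternative. The 36920 tested probes were well above background on at least 4 arrays. The scripts were tested on data with known answers, which for correlations had no group means subtracted. Correlations used 100000 permutations over all 20 arrays, not restricted to groups (numpy 2.4.6, Python 3.11.15).

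The members and lists were chosen with earlier results of these data known. Named genes were the 10 members, up to 3 called genes per role of the list of 68 with the largest mean absolute change over both long-fiber comparisons, and the 6 genes closest to Adipoq. Gpihbp1, Cd68, Pdgfra and the members of pairs were named after their values were seen. Hcar1 is listed as Gpr81 on the array. Replicate numbers come from the sample titles and pair no mice: deviations of same-numbered mice correlated between -0.68 and 0.69. Alternatives changed normalization, background correction, filter, slide, pairing, arrays in the fit and probe summary; 3 were added after seeing the data, namely the 5′ to 3′ index, the liver markers and median centring. The number of arrays limits the precision.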

Additional observations from a re-analysis of the deposited data

Results flagged for a closer look

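Among 60 groups of 4 mice checked, that is 12 probes in 5 groups, 2 held a mouse far from the other 3; chance alone marks about 1 in 20 groups. Fabp4 in NTL mouse 2 read 8.22 while the next NTL mouse read 7.28, a gap of 0.837 of the range of the group. The same mouse had the highest Adipoq, Plin1, Cidec, Pparg, Retn and Cfd of the 4 NTL mice. Retn in NTS mouse 3 read 6.54 while the next NTS mouse read 5.71, a gap of 0.830 of the range. That mouse also had the highest Adipoq, Plin1, Cidec, Fabp4, Pparg, Ucp1 and Cidea of NTS.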

How the results depend on the processing

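Retn and Pparg in NTL against VC kept their calls in every setting run. Of the 10 genes, 5 were called in NTL against VC and 3 remained under quantile normalization, no filter, the slide block, the replicate block, a fit of only the groups compared, and median centring. Of all probes, 1174 were called lower in the main fit and 482 to 1008 in those settings. Against 1 called in LFA, 0 were called under quantile normalization, normexp, no filter, the slide block, the replicate block, only the groups compared, the mean over probes, and median centring. In NTL against NTS, 1 became 0 under quantile normalization, no filter, the slide block, the replicate block and median centring, 3 with the 5′ to 3′ index and 2 on adjusted p alone. Of all probes, 1000 were called lower in the main fit, 2115 with the index and 1314 on adjusted p alone. The settings with 0 genes called 96 to 1016 probes lower. For long fibers against the other groups, 2 became 0 under quantile normalization and median centring, 1 under normexp and the slide block, and 6 on adjusted p alone. Of all probes, 1530 were called lower in the main fit. In these settings the number was 651, 1105, 358, 1047 and 5519, in that order. For any fiber group against VC, 3 became 0 under the slide block and median centring 1 under the replicate block and 4 with the 5′ to 3′ index; the methods' test called 3. The cause of these changes was not tested, beyond the larger number of probes adjusted for without a filter. Under the replicate block, counts in the other comparisons were the same.

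Leaving out 1 array at a time gave 3 to 5 genes called in NTL against VC, 0 to 1 in LFA against VC and in NTL against NTS, 0 to 2 for long fibers and 0 to 3 for any fiber group, with 0 throughout in SFA, NTS, LFA against SFA, LFA against NTL and the length test. The median change of the 10 genes then ran from -1.51 to -1.18 in NTL, -0.999 to -0.54 in LFA, -0.80 to -0.03 in NTS and -0.31 to 0.07 in SFA. Some directions turned, none of them called: Fabp4 in LFA under quantile normalization (0.12), Ucp1 in NTL against NTS under the slide block (0.0029) and, from -3.28 to 0.39 as single arrays were left out, without NTS mouse 3, and Lep in NTL, from -1.38 to 0.25, without VC mouse 4. Among all probes called in NTL against VC, 46.7% were lower by the 75th percentile, 27.7% by quantile and 35% by median centring; in LFA 43.6%, 24.1% and 24.6%. Correlated pairs numbered 24 on deviations and 32 on raw values. With 4 mice a group, Ucp1 and Lep, dim or widely spread, were measured least precisely.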
